A study of Ovis aries with 2 samples.

Results

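DDX3X and EIF2S3 are 2 genes of the translation machinery that the sheep Y-chromosome has kept in its X-degenerate part, where genes still have a partner on the X-chromosome but no longer recombine with it. CpG methylation at both Y copies was read in lung tissue from an F1 fetus (Churro x Friesian) taken after 100 days of gestation, with 1 PacBio HiFi library and 1 ONT library. The sources used here name no treatment, and there was no other animal or group. Only the other platform repeats a measurement, so the SD given with a value is the SD between CpG sites and no p-value was taken. The members are the CpG sites of each annotated gene and of the 10 kb on each side, taken by their position. They number 433 for DDX3X and 449 for EIF2S3, or 882 of the 372890 CpG sites of the chromosome, and both platforms list the same sites.

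DDX3X codes for a DEAD-box RNA helicase, which unwinds structured messenger RNA leaders so that ribosomes can scan them, and its Y copy is called DDX3Y in several other mammals. EIF2S3 codes for the gamma subunit of EIF2, the factor that binds GTP and brings the initiator methionyl-tRNA to the small ribosomal subunit. Both genes are active in nearly all cells and are sensitive to dosage, the reason usually given for their retention on the Y-chromosome. In mammals, CpG-dense starts of such genes are as a rule free of methylation, whereas the bodies of transcribed genes are methylated at most of their CpG sites. Transcription was not measured in these libraries.

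On chromosome Y of ARS-UI_Ramb_v3.0, DDX3X (LOC132659059 in RefSeq) lies on the minus strand from 7886481 to 7899914, with a length of 13434 bp and 3 annotated transcripts. EIF2S3 (LOC132659062) lies on the same strand from 8508157 to 8553310, with a length of 45154 bp and 2 transcripts. Their X copies in the same assembly are 15039 bp and 43225 bp long. DDX3X is separated by 27080 bp from KDM6A and by 41123 bp from the next gene upstream, a long non-coding RNA. EIF2S3 sits between ZFY, 17634 bp away, and SHROOM2, 21608 bp away. No other annotated gene reaches into either window. The gene table gives no exons, so sites are described by their distance from the annotated start, counted as positive into the gene.

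The start was nearly free of methylation in both genes. Within 500 bp of the DDX3X start, 59 CpG sites had 3.51% ± 3.22 on PacBio and 2.67% ± 3.85 on ONT. Within 500 bp of the EIF2S3 start, 57 CpG sites had 2.97% ± 0.491 and 1.46% ± 1.57. The CpG density in these windows was 58.9 and 56.9 sites per kb, against 11.6 per kb in the male-specific region, where mean methylation was 58.1% on PacBio and 49.98% on ONT. The difference of EIF2S3 minus DDX3X was -0.535 percentage points on PacBio and -1.21 points on ONT, and with windows of 250 bp it was 0.0212 points on PacBio and -0.429 on ONT. With wider windows, which reach past the upstream edge of DDX3X, it was -12.9 and -9.96 points at 1000 bp and -7.66 and -5.54 at 2000 bp. A single DDX3X site near the upstream limit of the window, at 7900401, had 26.4% on PacBio and 25% on ONT, and every other site of both windows was under 20% on both platforms. On PacBio the EIF2S3 window ran only from 2.0% to 4.9%. The modelled PacBio percentages never reach 0, and pooled over the estimated reads the starts had 1.95% (95% Wilson interval 1.43 to 2.64) for DDX3X and 1.76% (1.27 to 2.43) for EIF2S3. The ONT calls gave 2.57% (2.20 to 3.02) of 5750 and 1.41% (1.16 to 1.72) of 6732. The intervals of the 2 genes overlapped on PacBio and did not overlap on ONT. They cover counting error only, and neighbouring sites share reads. In the DDX3X window, 24 of 96 ONT calls at 7900401 and 14 of 97 at 7900414 were methylated, both near the upstream limit. No interval without these sites was taken.

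**Figure D1:**
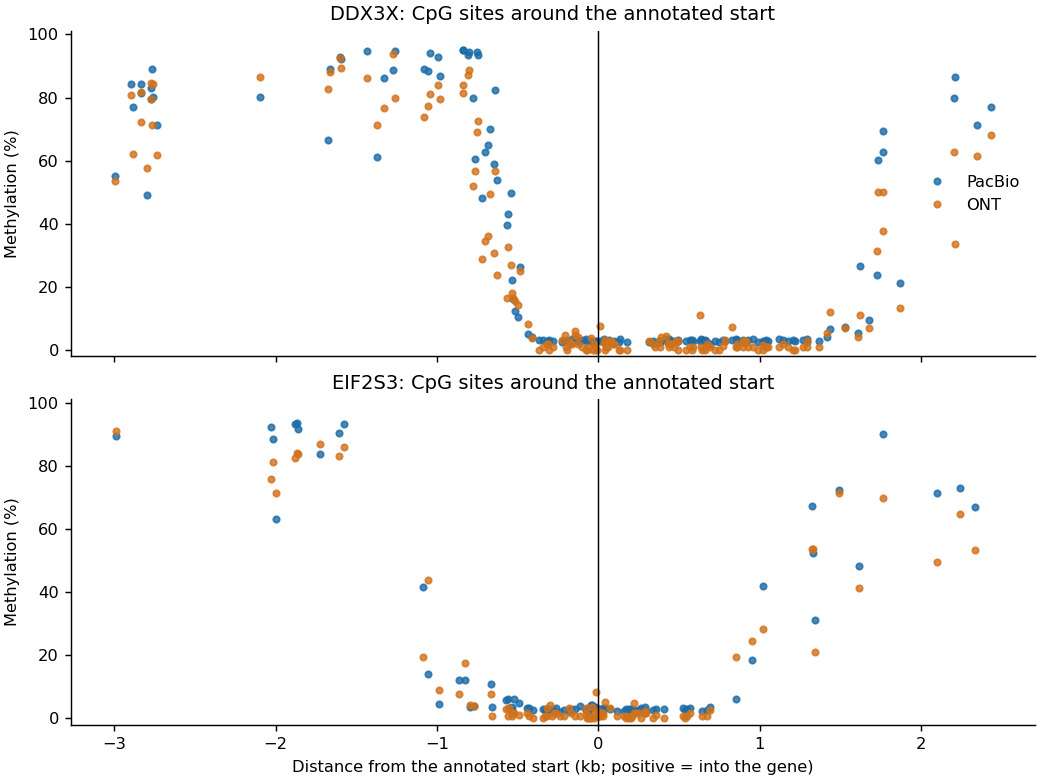
Methylation in percent of each CpG site against the distance from the annotated start in kb, for DDX3X (top) and EIF2S3 (bottom), with PacBio in blue and ONT in orange. The low stretch of DDX3X lies mostly inside the gene, from 534 bp upstream to 1676 bp downstream, and that of EIF2S3 lies on both sides of the start, from 985 bp upstream to 950 bp downstream.

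The 2 genes differed in where the unmethylated sequence lay. As the longest run of sites whose running mean of 5 sites stayed under 30% on both platforms, the low stretch of DDX3X was 2211 bp long with 107 CpG sites, and that of EIF2S3 was 1936 bp long with 79. The DDX3X stretch reached 1676 bp into the gene and only 534 bp upstream of it. The EIF2S3 stretch was almost centred on the start, with 950 bp inside the gene and 985 bp upstream. Mean methylation over the stretch was 4.05% ± 4.10 on PacBio and 2.92% ± 4.21 on ONT in DDX3X, and 3.72% ± 2.51 and 2.49% ± 4.11 in EIF2S3. Of the 162 CpG sites of the DDX3X gene, 73, or 45.1%, were in the low stretch, against 35 of 275, or 12.7%, in EIF2S3. The genes are 13434 and 45154 bp long, so these shares depend on gene length as well as on the place of the stretch.

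Between measured sites, the upstream edge of DDX3X rose over the shortest distance of the 4 edges. Its running mean passed 30% at 542 bp on PacBio and 566 bp on ONT and passed 70% at 718 and 776 bp, a rise within 176 and 210 bp. The upstream edge of EIF2S3 rose over 554 bp on both platforms, from 1056 to 1610 bp, across sequence that holds no CpG site between 8554399 and 8554887. How steep this edge is within that gap cannot be read. Inside the genes the rise was slower, and the platforms differed on its length. In DDX3X it took 621 bp on PacBio and 1677 bp on ONT, and in EIF2S3 745 and 2248 bp. In the second kb of the gene, the 24 DDX3X sites had 14.05% ± 20.6 and 10.1% ± 15.6 on the respective platforms, whereas the 7 EIF2S3 sites had 57.7% ± 20.1 and 48.4% ± 19.3. In the first kb upstream the order was the other way round, with 30.3% ± 35.4 and 23.0% ± 29.0 in DDX3X and 3.97% ± 2.33 and 2.47% ± 3.26 in EIF2S3.

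**Figure D2:**
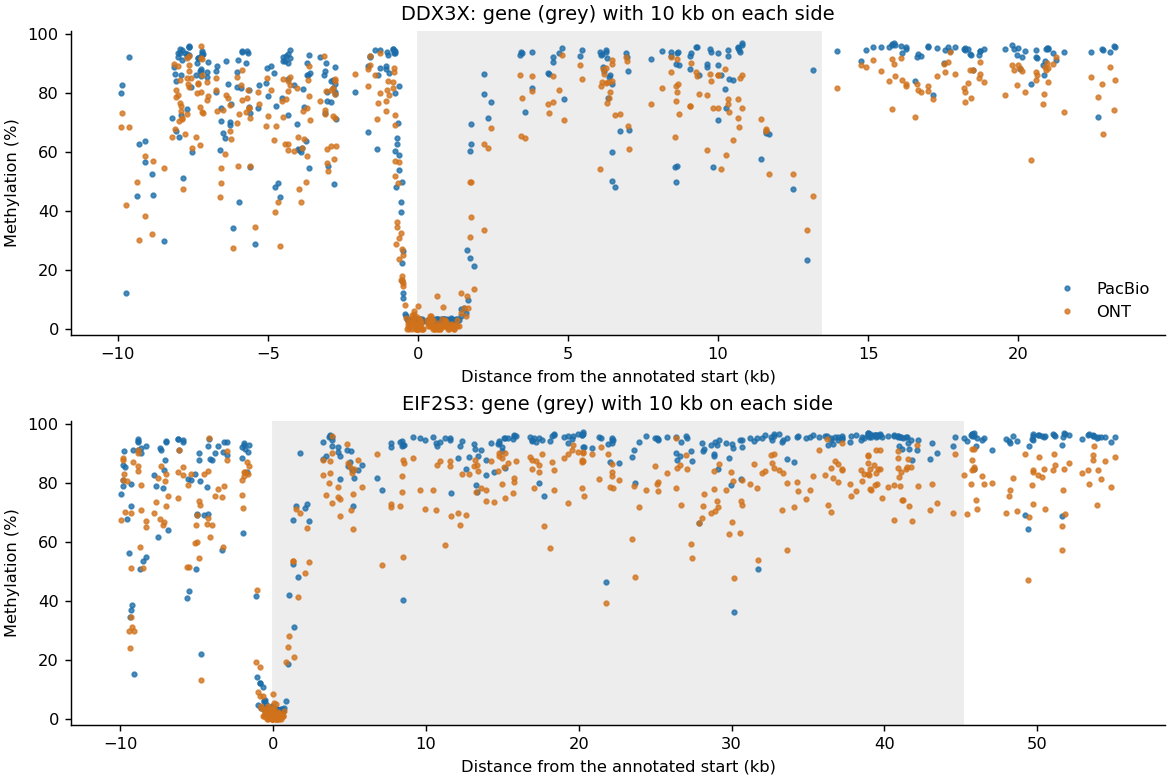
Methylation in percent of all 433 CpG sites around DDX3X and 449 around EIF2S3 against the distance from the annotated start in kb, with the gene shaded in grey, PacBio in blue and ONT in orange. A low stretch at the start stands out from mostly higher methylation in each window. Single sites elsewhere are also low, such as 7909628 near DDX3X (12% on PacBio) and 8562398 near EIF2S3 (15.1%). The sites near the far end of DDX3X lie on average lower than those of EIF2S3.

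The gene body, taken without its first 2 kb and last 500 bp, was highly methylated in both genes. DDX3X had 84.1% ± 13.6 on PacBio and 77.0% ± 11.3 on ONT over 82 CpG sites. EIF2S3 had 91.5% ± 8.43 and 79.6% ± 9.73 over 233 sites. The step from start to body was thus 80.6 points on PacBio and 74.3 on ONT in DDX3X, and 88.5 and 78.2 points in EIF2S3, more than the platforms differed on it in either gene. EIF2S3 was 7.34 points above DDX3X on PacBio but 2.62 points on ONT, and on the ONT reads of the coding strand alone it was 0.862 points below. With only the first 1 kb left out of the body, which then holds part of the DDX3X low stretch, EIF2S3 was 22.2 points above on PacBio and 16.9 on ONT. Over the whole genes, with the low stretches included, it was 33.1 and 27.4 points above. Without the DDX3X sites that had at least 90 PacBio calls, EIF2S3 was 3.16 points above on PacBio and 3.69 points on ONT. The size of the difference thus depended on these sites on PacBio and, more so, on where the body begins, and its sign on ONT depended on the strand. No body site of either gene was under 20%. In DDX3X, 1 of 82 body sites was under 60% on both platforms, or 1.22%, and in EIF2S3 it was 4 of 233, or 1.72%. Over the bodies of the 11 other protein-coding genes of the male-specific region with a measured body, 18.4% of 6697 sites were so low, and 45.9% of all sites of the region. SHROOM2 gave 2712 of those 6697 sites, and the body means of the 11 genes ran from 41.6% to 89.5% on PacBio. No share was taken over genes with a similar body mean. The lowest of the DDX3X and EIF2S3 sites under 60%, by PacBio, was 30179 bp into EIF2S3 at 8523131. It had 36.4% (15 of 40 estimated reads) and 47.9% on ONT (46 of 96 calls). At 21789 bp, position 8531521, EIF2S3 had 46.6% (21 of 44) and 39.3% (44 of 112).

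On ONT the 2 strands of a CpG are separate sets of reads. Methylation of the DDX3X body was 75.1% on the template strand and 79.5% on the coding strand, a mean difference of -4.44 points with an SD of 16.7 between its 82 sites. In the EIF2S3 body it was 79.3% and 78.7%, with a mean difference of 0.638 points and an SD of 17.2 over 233 sites. Single sites differed more, by over 30 points at 7 of 82 sites in DDX3X and at 19 of 233 in EIF2S3. These are 8.54% and 8.15% of the body sites, against 4.86% of all CpG sites of the male-specific region. Sites of the region differ from these bodies in mean methylation and depth, and no set of sites matched on both was compared. At 7888217 in DDX3X, the template strand had 86.8% of 38 calls and the coding strand 22.7% of 44.

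The far ends held few CpG sites, 2 within 500 bp in each gene, so their values are coarse. The DDX3X sites were both inside the gene. The one 486 bp before the end had 23.4% on PacBio (23 of 102 estimated reads) and 33.7% on ONT (32 of 95 calls), and the one 276 bp before the end had 87.8% (52 of 59) and 45.2% (38 of 84). The EIF2S3 sites, both just outside the gene, reached 95.4% and 94.3% on PacBio, against 82.9% and 69.4% by ONT. The mean was 55.6% and 39.5% in DDX3X and 94.9% and 76.2% in EIF2S3. Over the last 2 kb of the gene, the 7 DDX3X sites averaged 59.4% ± 19.99 by PacBio and 55.7% ± 13.7 by ONT, against values for the 3 EIF2S3 sites of 92.8% ± 2.60 and 77.6% ± 10.7. The far end of DDX3X was thus the lower one by 33.5 points on PacBio and 21.9 points on ONT over the last 2 kb, and by 22.3 and 13.7 points with 2000 bp on each side of the far end. In the last 2 kb, DDX3X had 6 of its 7 sites in sequence where at least 90 PacBio reads gave a call, against a median of 61 in the whole DDX3X body.

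Away from the starts, EIF2S3 minus DDX3X was between -3.90 and 0.483 points in the flanks of the genes. Over the whole upstream 10 kb, which includes the low stretches, it was -15.5 points on PacBio and -13.0 on ONT. Between 2 and 10 kb upstream, DDX3X had 78.5% ± 16.4 on PacBio and 71.0% ± 14.8 on ONT over 138 sites, and EIF2S3 had 77.5% ± 19.6 and 70.5% ± 17.4 over 69. In the 10 kb beyond the far end, DDX3X had 93.2% ± 4.19 and 84.1% ± 6.41 over 67 sites, and EIF2S3 had 93.6% ± 6.83 and 80.2% ± 8.94 over 52. The kb that begins 8 kb upstream of DDX3X held 36 CpG sites, fewer than the kb at the start, with 87.6% ± 10.4 on PacBio and 78.9% ± 10.4 on ONT.

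Among the 64 annotated protein-coding genes of the male-specific region, 11, or 17.2%, had a start under 20% on both platforms, and DDX3X and EIF2S3 were 2 of them. EIF2S3 had the lowest start of all 64 on both platforms. DDX3X was 4th lowest on PacBio and 6th on ONT. Next to them stood KDM6A, a histone demethylase gene, with 3.12% and 1.71%, ZRSR2Y, a splicing factor gene, with 3.29% and 1.98%, and ZFY, a zinc-finger gene, with 4.22% and 2.12%. On ONT, SHROOM2 was the third lowest with 1.77% (4.43% on PacBio), and the gene just above DDX3X was LOC132658880, with 2.68% (5.23% on PacBio). Whether neighbours in this order differ was not tested. The 46 ampliconic copies had a median of 49.9% on PacBio and 41.6% on ONT, and 1 of them was under 20% on both. Of the 10 genes on a list of single-copy X-degenerate genes, which has USP9X as 2 annotated copies and does not include the members, 7 were under 20% on both. Copies of a family are not independent, and the genes come from 1 animal.

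**Figure D3:**
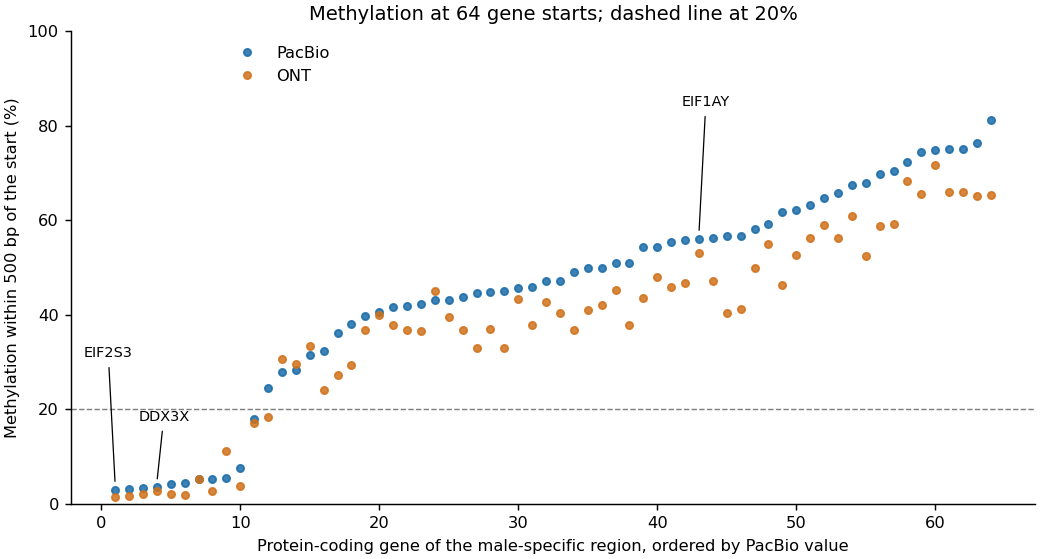
Mean methylation in percent of the CpG sites within 500 bp of the start for 64 protein-coding genes of the male-specific region, in the order of their PacBio values, with ONT in orange and a dashed line at 20%. EIF2S3 stands first and DDX3X 4th, whereas EIF1AY, with 56.1% on PacBio, stands among the methylated starts.

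The remaining gene on a short list of translation genes was not low at its start. EIF1AY, which codes for an initiation factor that helps the ribosome to find the start codon, had 56.1% ± 27.9 on PacBio and 53.0% ± 23.7 on ONT over 16 CpG sites within 500 bp of its annotated start. Its 4 annotated EIF1AX pseudogenes had 54.9% to 74.2% on PacBio and 36.4% to 63.3% on ONT. The list holds the members, EIF1AY and the EIF1AX copies, and is not a full survey of genes with a part in translation. EIF1AY also had a lower body, with 53.1% and 47.3%.

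For 13 of the 64 genes a body could be measured, which needed a length of at least 7500 bp. EIF2S3 had the highest body on both platforms, and DDX3X was 6th on PacBio and 4th on ONT. ZRSR2Y was the next below EIF2S3, with 89.5% on PacBio and 79.6% on ONT, the same ONT value as EIF2S3 at this rounding. By the sum of the absolute differences in start, body and far end over both platforms, among 11 other genes with all values, ZFY was most like EIF2S3, at 10.3 points, followed by ZRSR2Y at 11.9 and the longer USP9X copy at 28.9. The genes most like DDX3X were SHROOM2 at 51.7 points, OFD1 at 66.3 and the longer USP9X copy at 79.2. By this measure DDX3X had no close match, and its 2 far-end sites weigh heavily in it. KDM6A has no CpG site within 500 bp of its far end and was left out. Its start had 3.12% on PacBio and 1.71% on ONT, against 3.51% and 2.67% in DDX3X. Its body had 89.0% and 76.5%, against 84.1% and 77.0%. ZFY had 4.22% and 2.12% at the start and 88.5% and 75.9% in the body. On start and body alone, DDX3X thus had genes near it.

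**Figure D4:**
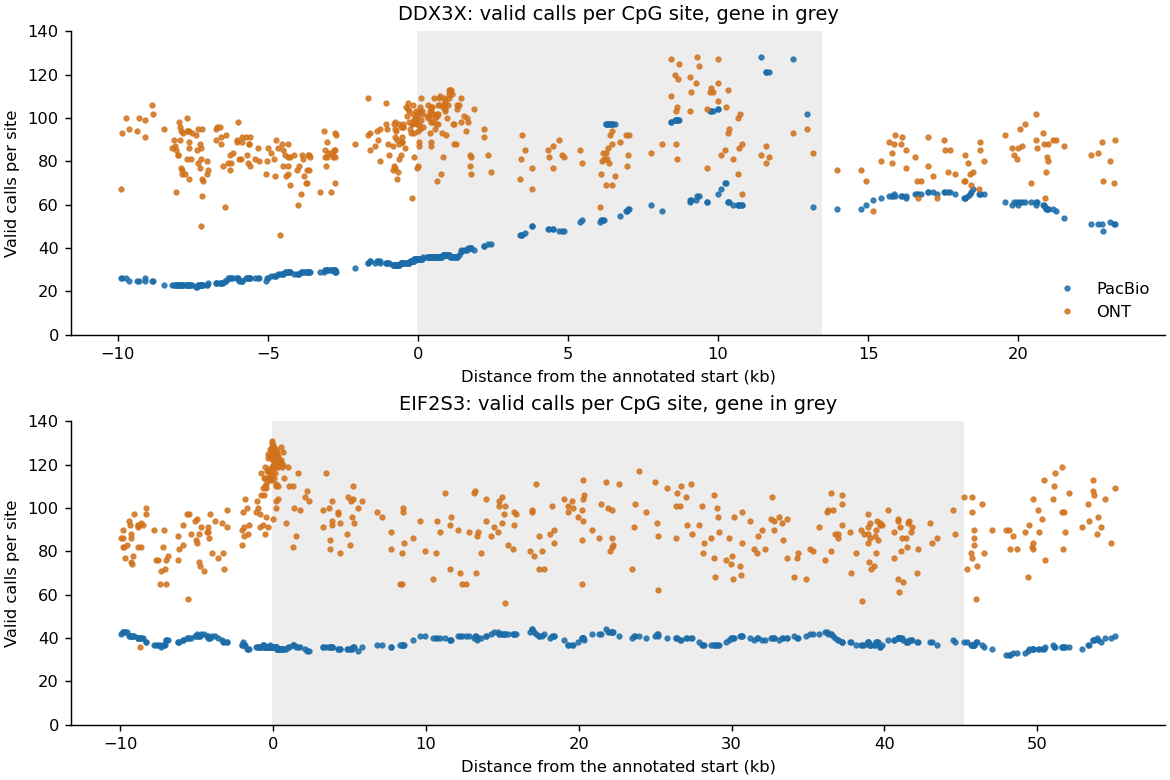
Valid calls at each CpG site against the distance from the annotated start in kb, for DDX3X (top) and EIF2S3 (bottom), with the gene in grey, PacBio in blue and ONT in orange. PacBio depth stays between 32 and 44 around EIF2S3, whereas around DDX3X it rises from the upstream side and jumps to between 97 and 128 in 4 places.

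Read depth set the 2 genes apart on PacBio. Valid calls per site had a median of 39 on PacBio and 89 on ONT in the male-specific region. Across the EIF2S3 window, PacBio depth stayed between 32 and 44. Across the DDX3X window it ran from 22 to 128, with a median of 29 in the upstream 10 kb, 61 in the body and 63 beyond the far end. The ONT medians of these 3 stretches were 87, 87 and 83. At the EIF2S3 start the ONT median was 120, against 90 in its body, while PacBio had 36 and 40. Valid ONT calls leave out those between the thresholds of 20% and 80%. These were 8.08% of the calls at this start and 15.2% in this body.

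Within DDX3X, 30 CpG sites had at least 90 PacBio calls, a limit set after the depths were seen. These are 6.93% of the 433 sites of its window, whereas 0.334% of all sites of the male-specific region and none of the 449 around EIF2S3 reached it. They formed 4 uninterrupted runs of CpG sites. The first, from 7893351 to 7893643, held 10 sites with 97 calls each, between neighbouring sites with 53 and 55. The second, from 7891221 to 7891497, held 9 sites with 98 or 99 calls, between 57 and 61. The third, from 7889915 to 7890175, held 5 with 103 or 104, between 61 and 65. The last, from 7886967 to 7888479, held 6 with 102 to 128, between 60 and 59, and is the run near the far end. ONT had 69 to 94 calls in the first run, 81 to 127 in the second, 108 to 116 in the third and 79 to 95 in the last, against a median of 87 in the body. ONT depth was thus above that median at every site of the third run, and the remaining body sites had 59 to 128 calls.

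The usual mean offset between the platforms was not seen at these sites, and the SD of PacBio minus ONT was 14.7 points there, against 10.8 at the other body sites of DDX3X. At the 29 of them in the body, PacBio had 76.5% ± 18.0 and ONT had 79.0% ± 10.5. At the other 53 body sites, PacBio had 88.3% ± 7.95 and ONT had 75.9% ± 11.7. The mean of PacBio minus ONT was thus -2.48 points at the deep sites and 12.4 points at the others, close to the 11.8 points by which it was above ONT in the EIF2S3 body. PacBio was the lower platform at 13 of the 29 deep sites and at 3 of the other 53. In the third run its mean was 1.77 points above ONT. At 8 of the 29 deep sites PacBio was more than 10 points under ONT, which occurred at none of the other 53 and at 2 of 233 in EIF2S3. The share of such sites over the whole male-specific region was not taken. At 7893444, for example, PacBio had 50.2% (48 of 97 estimated reads) and ONT had 84.0% (79 of 94 calls). At 7891317 PacBio had 50.0% (50 of 99) and ONT had 77.3% (68 of 88). At other sites of the same runs both platforms were high, such as 7893637, with 94.8% and 88.4%. The source of the added PacBio reads, and their part in the lower PacBio values, was not tested.

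**Figure D5:**
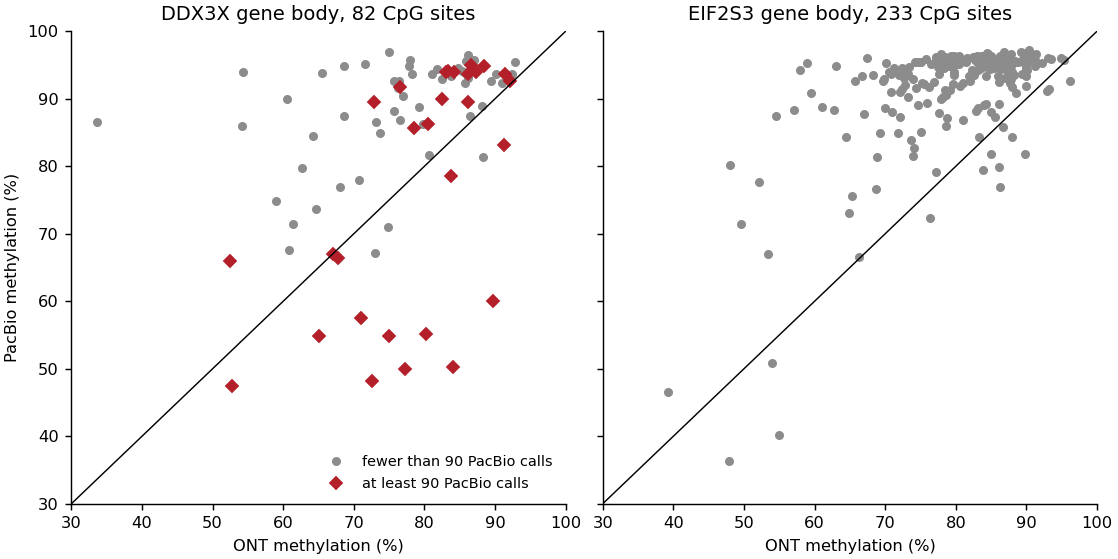
PacBio methylation against ONT methylation, both in percent, for each CpG site of the gene body of DDX3X (82 sites) and EIF2S3 (233 sites), with the line of equal values. The 29 DDX3X sites with at least 90 PacBio calls are red diamonds, and 8 of them lie more than 10 points under the line.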

How the data were processed

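Both libraries were made from lung DNA of the same animal. PacBio reads were given methylation calls by Primrose and placed with pbmm2, and the authors deposited a modelled percent of methylation per CpG site from pb-CpG-tools. The deposited counts beside it are the reads at the site and the estimated modified and unmodified reads. For ONT, the authors used Dorado, Winnowmap and modbam2bed, and deposited for each strand the counts of methylated and unmethylated calls past thresholds of 80% and 20%. Reads drawn from similar sequence elsewhere would enter either value, and the sources used here do not give the alignment filter.

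Here the ONT strands of a CpG were added, sites needed at least 5 valid calls (none failed), and a region was the mean over its sites. Gene positions came from the RefSeq table of the same assembly. Names and strands came from the study's gene list, which matched all 241 genes of chromosome Y by start and end. The genes named were the members, the translation genes, the neighbours of the members in the order of starts and bodies, and the 3 genes most like each member. No test was run, since there was 1 animal and neighbouring sites share reads. The 2 genes and the lists were chosen with earlier results of these data known, so ranks are a description. The computation was tested on simulated data. Python 3.11.15, NumPy 2.4.6, pandas 2.3.3, SciPy 1.17.1 and matplotlib 3.10.9 were used.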

Additional observations from a re-analysis of the deposited data

How the results depend on the processing

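No paired analysis was possible because the 2 libraries share 1 animal, with no groups to pair and no test. A value counts as changed where an alternative shifted it by more than the SD between the platforms, and lengths and counts beyond a factor of 1.5. Of 212 values under an alternative, 158 stayed within that limit, 52 moved and 2 turned their sign. The 158 include 59 equal to the value reported. Of these, the 44 for a minimum of 10 or 20 calls per site could not differ, since every site had at least 22 calls, nor could medians over 2 far-end sites or EIF2S3 without deep sites, of which it has none. The cause was not tested except where the construction of a window shows it. The lengths of the low stretches and the count of low gene starts stayed within a factor of 1.5, and both genes were among the low starts under all 6 alternatives of that count.

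With windows of 1000 bp on each side, the DDX3X start had 16.6% on PacBio and 12.5% on ONT, since they reach past its upstream edge, and its body was 67.5 and 64.5 points above. EIF2S3 minus DDX3X at the start was then -12.9 points on PacBio and -9.96 on ONT, and EIF2S3 was 31.3 and 28.4 points above it at the far end, where DDX3X had 53.3% on ONT. With 2000 bp, the starts had 22.0% and 17.9% in DDX3X and 14.3% and 12.4% in EIF2S3, with bodies 62.1 and 59.1 and 77.1 and 67.2 points above, and a difference between the genes of -7.66 and -5.54. The DDX3X far end had 71.9% and 67.4%, which was 22.3 and 13.7 points under EIF2S3. With 250 bp, the difference at the start was 0.0212 points on PacBio, with its sign turned, and -0.429 on ONT, where DDX3X had 1.98%.

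With only the first 1 kb left out, the DDX3X body had 68.3% and 61.9%, 64.7 and 59.2 points above its start and 22.2 and 16.9 points under EIF2S3. With the whole gene as body, DDX3X had 46.3% and 41.6% (42.8 and 38.9 points above its start), EIF2S3 had 79.4% and 69.0% (76.4 and 67.6), and the genes differed by 33.1 and 27.4 points. Without the deep sites, an alternative chosen after seeing the data, the difference in the body was 3.16 points on PacBio.

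As a median over sites on PacBio, DDX3X had 2.90% at the start and 89.7% in the body, a step of 86.8 points, and the starts differed by 0 points. The ONT median of the DDX3X start was 1.96%. Pooled over all PacBio reads, the starts had 1.95% in DDX3X and 1.76% in EIF2S3, and the far ends differed by 49.5 points. On the ONT plus strand alone the far ends differed by 38.7 points, and on the minus strand alone by 33.7, where the body difference was -0.862 points, with its sign turned.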

Other observations

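The share of ONT calls between the thresholds, which enter no percentage, was 8.72% at the start of DDX3X and 8.08% at that of EIF2S3. In the bodies it was 12.9% and 15.2%, and over all sites of the male-specific region 13.3%.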
